A study of Homo sapiens with 26 samples.

Results

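Simple epithelial keratins were followed as 7 genes, KRT7, KRT8, KRT18, KRT19, KRT20, KRT80 and KRT81, chosen by symbol from the 26485 gene symbols that each of the 5 deposited expression tables holds. All 7 symbols were present in every table. mRNA was sequenced from 3 established human lines of esophageal squamous cell carcinoma (ESCC), KYSE180, TE6 and KYSE150, after the germ cell bromodomain gene BRDT or the squamous transcription factor gene TP63 had been lowered or BRDT had been raised. Its 26 libraries form 11 groups, and each treated group was compared with the controls of its own table, which gives 6 comparisons. Knockdown cells carried a small interfering RNA (siRNA) for 48 h. KYSE180 cells had control siRNA (siCont, n = 3) or BRDT siRNA (siBRDT, n = 3) in one experiment, and siCont (n = 2) or TP63 siRNA (siTP63, n = 2) in another. TE6 cells had siCont, siBRDT or siTP63 (n = 2 each), so both TE6 comparisons share their controls. KYSE150 cells had siCont or siTP63 (n = 2 each), or were electroporated with an empty vector (cont, n = 3) or a BRDT plasmid (BRDT-OE, n = 3). None of the groups carries a further genetic change named in the labels, and nothing there says that replicates came from separate cultures, so p-values measure the spread between libraries, which may be technical.

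Keratins are the intermediate filament proteins of epithelial cells. A filament subunit always pairs a type I keratin with a type II keratin, and an unpaired partner is degraded. KRT8 (type II) and KRT18 (type I) are the founding pair of simple, single-layered epithelia such as gut and gland, while KRT7 (type II) and KRT19 (type I) accompany them in ducts and in many carcinomas. KRT20 (type I) marks intestinal and urothelial surface cells. KRT80 (type II) is an epithelial keratin that is also found in differentiating stratified epithelia, and KRT81 (type II) is a hair keratin that appears in some carcinomas. Normal esophageal epithelium is stratified and instead builds on KRT5 with KRT14 in its basal layer and KRT4 with KRT13 above it, a program in which p63 is a central regulator.

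The targeted genes stood where the labels place them. Normalised BRDT values were 132 to 198 in siBRDT against 1017 to 1136 in siCont libraries of KYSE180 and 46.6 to 55.0 against 241 to 242 in TE6. TP63 values were 794 to 925 against 2573 to 3035 in the siTP63 experiment of KYSE180, 112 to 133 against 2596 to 2785 in TE6 and 114 to 170 against 695 to 729 in KYSE150. BRDT-OE libraries held BRDT values of 15872 to 17542, and their controls 6.58 to 16.0. TP63 was also lower under siBRDT, by 0.58 on the log2 scale in KYSE180 and by 1.15 in TE6, with adjusted p = 8.79e-06 and 1.98e-05 by limma. All 10 squamous markers exceeded 1 RPM (reads scaled to a library of equal total) in every KYSE180 and TE6 library and 9 of 10 did in every KYSE150 library. Of 7 columnar or intestinal markers, at most 2 exceeded 1 RPM in every library of any group. Of 8 fibroblast markers, 1 to 3 did so, with sums of 3.89 to 121 RPM. Summed leukocyte markers stayed at or under 4.97 RPM. Libraries held 7582089 to 19372441 reads in genes, and 3 reads, the most that a count of 0 allows, equal 0.155 to 0.396 RPM by counting error alone.

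The siRNA sequences listed by the study are shown because a match to a keratin transcript would bear on every knockdown comparison. They are sense strands written 5′ to 3′, and the capitals mark bases 12 to 18, which pair with the seed of the guide strand. Which of them was used for RNA sequencing is not given in the sources used here.
BRDT siRNA #2: caaaucaacuuCAGUAUCu
BRDT siRNA #3: gaaaauggauaACCAAGAa
TP63 siRNA #8: cgacagucuugUACAAUUu
Non-targeting control siRNA #5: ugguuuacaugUCGACUAa
BRDT siRNA #4: guagagagaacACUAAUGa
TP63 siRNA #5: caucaugucugGACUAUUu
BRDT siRNA #18: gagauaaacuuGGGCGAGu
Among the transcripts of GENCODE release 44, the 19 bases of each BRDT siRNA were found whole in BRDT only, those of each TP63 siRNA in TP63 only, and those of the control in none. The longest run that any of them shared with a canonical transcript of the 7 keratins was 9 bases, between BRDT siRNA #2 and KRT80. It was 8 for the next 2 siRNAs in the order shown and 7 for the last 4. These lengths do not say whether the marked bases are covered, so pairing through the seed alone was not tested.

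All type II members lie in the keratin cluster of chromosome 12, with KRT18 beside them. On hg38, KRT80 spans chr12:52168996-52192014 on the minus strand, KRT7 chr12:52232520-52252186 on the plus strand, KRT81 chr12:52285913-52291534 on the minus strand, KRT8 chr12:52897187-52949954 on the minus strand and KRT18 chr12:52948871-52952906 on the plus strand. KRT20 (chr17:40875889-40885242) and KRT19 (chr17:41523617-41528308) lie on the minus strand of chromosome 17, in the type I cluster. KRT8 and KRT18 run head to head, and 26.5% of the exonic bases of KRT18 overlap exons annotated to KRT8 on the other strand. For KRT7 this share was 13.6%, from the antisense gene KRT7-AS. The strand setting of the read counting is not given in the sources used here, so reads in these overlaps could not be assigned with certainty.

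Near-identical copies limit some of the counts. Of the 50-base windows of the canonical transcript, 39.2% in KRT8, 35.3% in KRT18 and 44.6% in KRT81 also occur in transcripts of other genes, mostly processed pseudogenes for KRT8 and KRT18. The share was 1.08% for KRT7, 1.79% for KRT19, 0.418% for KRT80 and 0% for KRT20. KRT81 shares its sequence above all with the neighbouring hair keratin KRT86: their coding sequences are identical over 605 bases, from base 61 to base 665 counted from the start codon. The 60 coding bases 636 to 695 below show where this identity ends, with the differing bases in capitals.
KRT81: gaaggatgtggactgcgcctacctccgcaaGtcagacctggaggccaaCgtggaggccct
KRT86: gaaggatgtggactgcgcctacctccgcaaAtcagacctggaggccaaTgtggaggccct
Values of KRT81 therefore rest on the part of the transcript outside this run wherever reads with several matches were dropped, and are treated as uncertain.

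In control cells the members fell into an abundant and a scarce class, and the 3 lines differed in which genes were abundant. Levels between genes are compared as RPKM, reads scaled to canonical transcript length and to the library total, computed from the recovered reads. In the KYSE180 controls of the BRDT experiment KRT19 stood highest at 897 ± 44.7 RPKM (SD, n = 3), followed by KRT8 at 367 ± 19.4 and KRT18 at 256 ± 22.7, with no overlap between these genes. KRT7 at 2.65 ± 0.0456 and KRT80 at 2.44 ± 0.425 RPKM overlapped each other. The KYSE180 controls of the TP63 experiment kept the order KRT19, KRT8, KRT18, but at 2218 ± 329, 927 ± 169 and 489 ± 67.8 RPKM (n = 2), and KRT7 stood at 10.6 ± 2.79 RPKM. The same siCont label in the same line thus came with levels that did not overlap for these 4 genes, so control levels are tied to the experiment.

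TE6 controls showed the same leading order at closer spacing, with KRT19 at 792 ± 83.8, KRT8 at 606 ± 54.3 and KRT18 at 330 ± 19.98 RPKM (n = 2), and KRT80 at 5.38 ± 0.257 RPKM stood above KRT7 at 3.16 ± 0.0645. KYSE150 differed by the near absence of KRT19, which had 2 reads in each siCont library and 20 to 48 reads in the empty-vector controls (1.56 ± 0.599 RPKM, n = 3). KRT8 at 2264 ± 475 and KRT18 at 1885 ± 573 RPKM led in the KYSE150 siCont libraries (n = 2), and KRT18 at 1335 ± 183 and KRT8 at 1316 ± 84.5 in the empty-vector controls. The pair overlapped in both. KRT80 reached 32.6 ± 4.72 and 40.5 ± 2.23 RPKM in these KYSE150 controls, above every control library of KYSE180 and TE6. KRT81 was read mainly in KYSE150, at 3.69 ± 1.43 and 4.79 ± 1.04 RPKM. These differences between lines are levels across separately made experiments and were not tested.

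**Figure D1:**
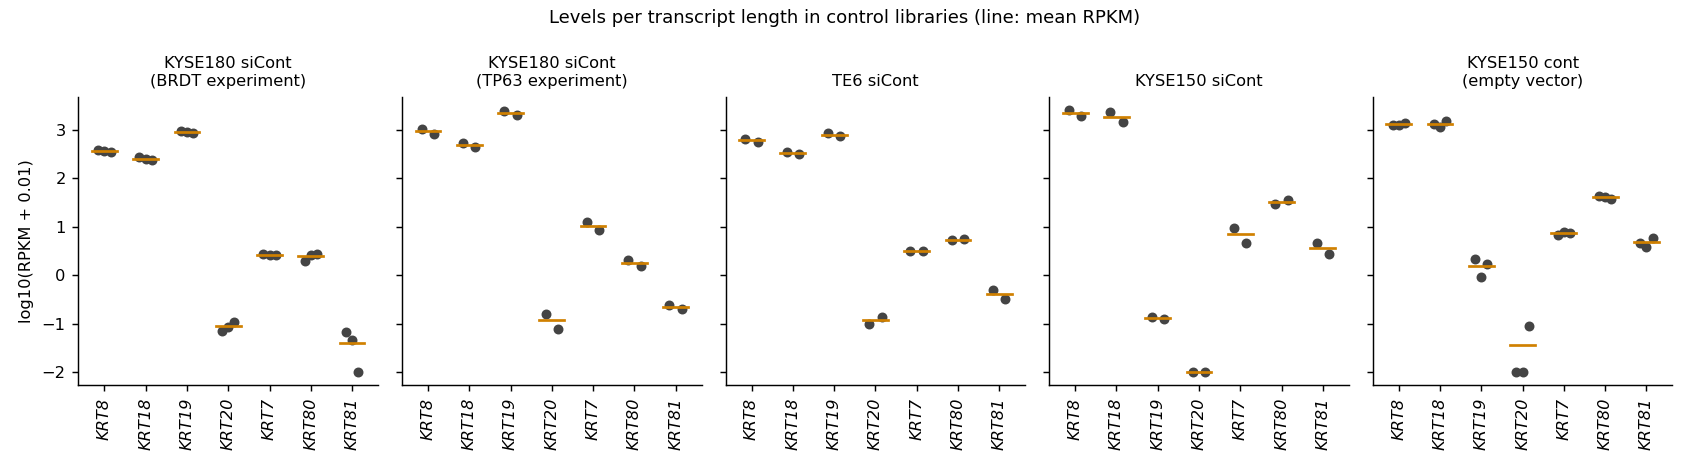
Levels of the 7 keratins in control libraries of the 5 experiments, in RPKM on a log10 axis after adding 0.01, with a dot for each library and a line at the mean. KRT19 leads in both KYSE180 panels and in TE6 and is near the bottom in both KYSE150 panels, where KRT8 and KRT18 overlap at the top.

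Each treated group was then tested against its controls on log2(value + 1) with limma over all genes with a mean value of at least 10, and a call required an adjusted p under 0.05 and a difference of 0.5 or more on the log2 scale in either direction. The scale understates changes of genes with low values, and in bulk mRNA a change in every cell and a change in a part of the cells cannot be told apart. Under siBRDT in KYSE180, 1 of 5 tested members rose and 0 fell, beside 14.5% of all tested genes that rose and 15.8% that fell. In TE6, siBRDT gave 3 rises and 0 falls among 5 tested members, beside 15.6% and 18.1% of all genes. Under siTP63 in KYSE180, 3 of 6 tested members rose and 3 fell, beside 23.6% and 25.7% of all genes, and 1 of the rises, KRT81, had passed the filter only through its treated libraries. In TE6, siTP63 gave 2 rises and 0 falls among 5 tested members, beside 18.3% and 20.6%. BRDT-OE in KYSE150 gave 0 rises and 1 fall among 6 tested members, beside 10.5% and 16% of all genes.

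Under siTP63 in KYSE150 the limma test called 0 of 5 tested members and 0% of all genes. TP63 itself differed by -2.34 on the log2 scale and was not called (adjusted p = 0.0818, limma). An absence of calls in this comparison therefore does not show an absence of change. An unadjusted p under 0.05 was met by 3 members, beside 17.8% of all genes, and edgeR on the recovered reads called 0 members and DESeq2 1, KRT7. The median log2 change of the tested members was 0.15 under siBRDT in KYSE180, 0.64 under siBRDT in TE6, 0.34 and 0.25 under siTP63 in KYSE180 and TE6, 0.77 under siTP63 in KYSE150 and -0.10 under BRDT-OE. The KYSE180 siTP63 median includes KRT81 at 1.87, which passed the filter only through its treated libraries. The other tested members in that comparison were at -0.93, -0.87, -0.58, 1.27 and 3.37. The median over all tested genes lay between -0.04 and 0.02. Groups that did not overlap were common among all genes. Under siBRDT in KYSE180 every treated library stood above every control for 1 tested member and below for 1, beside 31% and 31.8% of all genes, and in TE6 for 3 and 1, beside 34.5% and 37.3%. Under siTP63 the counts were 3 (KRT81 among them) and 3 in KYSE180, beside 39.8% and 40.4%, then 3 and 1 in TE6, beside 39.8% and 40.7%, and 3 and 1 in KYSE150, beside 24.3% and 24.6%. Under BRDT-OE they were 1 and 1, beside 30.9% and 29.3%. KRT20 passed the filter on low values in 0 of the 6 comparisons, KRT81 failed it in 3 and KRT19 in 1.

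**Figure D2:**
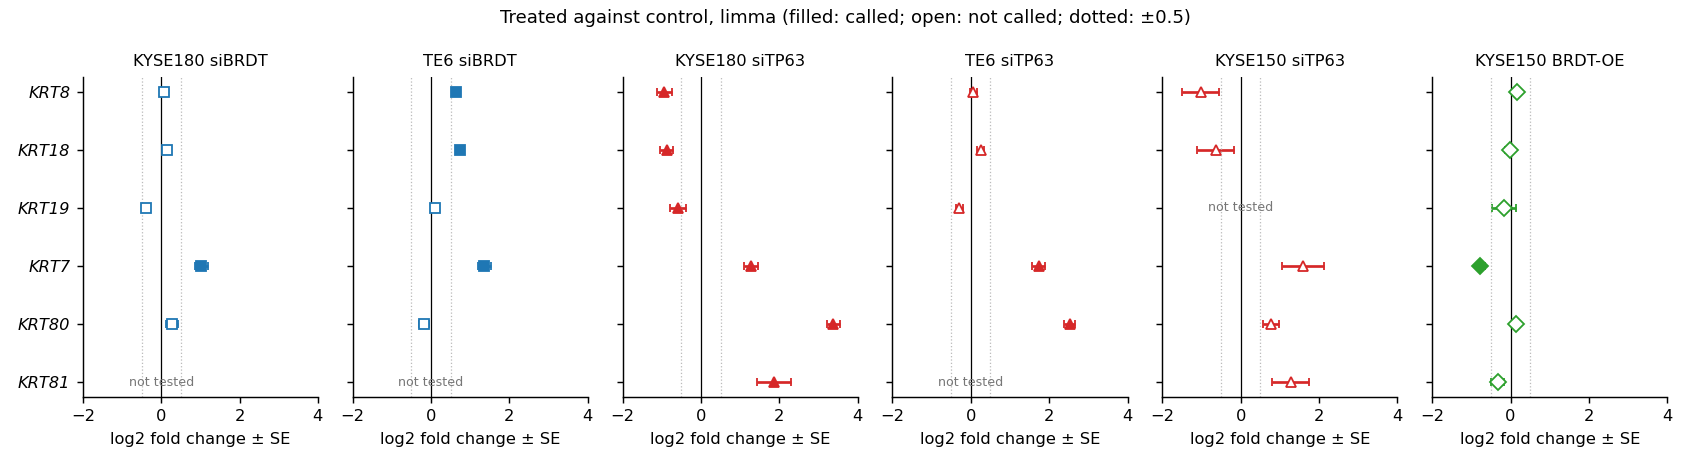
Log2 fold changes of 6 keratins against the controls of the same table with standard errors from limma, in 1 panel per comparison, where filled symbols were called and dotted lines mark 0.5 in either direction. KRT7 is right of 0 in all 5 knockdown panels and left of it under BRDT-OE, and KRT80 lies at 3.37 and 2.52 under siTP63 in KYSE180 and TE6 but within 0.5 of 0 under siBRDT.

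KRT7, the type II keratin of glandular and ductal cells, was higher after either knockdown in KYSE180 and TE6 and lower after BRDT overexpression in KYSE150. In the BRDT experiment of KYSE180, normalised KRT7 values were 49.0, 47.6 and 47.1 in siCont and 101, 120 and 78.3 in siBRDT libraries. In TE6 they were 58.9 and 56.8 in siCont, 148 and 153 in siBRDT and 214 and 176 in siTP63. The siTP63 experiment of KYSE180 had 352 and 231 in controls and 785 and 605 in treated libraries. In all 4 of these comparisons every treated library stood above every control. The log2 fold change was 1.02 ± 0.166 (SE, adjusted p = 9.17e-05, limma) for siBRDT in KYSE180 and 1.36 ± 0.176 (adjusted p = 7.35e-05) for siBRDT in TE6. For siTP63 it was 1.27 ± 0.178 (adjusted p = 1.39e-06) in KYSE180 and 1.73 ± 0.176 (adjusted p = 7.00e-06) in TE6. Over the alternatives and the fits without single libraries, these 4 values ranged from 0.88 to 1.19, 0.85 to 1.64, 0.96 to 1.79 and 1.32 to 1.87 and were called each time.

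KRT7 values in the BRDT-OE experiment were 160, 183 and 184 in empty-vector and 107, 101 and 98.4 in BRDT-OE libraries. The groups did not overlap, and KRT7 fell by 0.77 on the log2 scale (SE 0.119, adjusted p = 4.39e-04, limma). It was the 1 member called in this comparison, also under every alternative (-0.89 to -0.55). In KYSE150 siTP63 the KRT7 values were 258 and 110 in siCont and 337 and 757 in siTP63 libraries, a log2 difference of 1.58 ± 0.537 that missed the threshold (adjusted p = 0.225). Without the first siCont library this value was 2.20 (adjusted p = 1.82e-04), without the first siTP63 library 2.16 (adjusted p = 0.0103), and without either of the other libraries 0.97 to 1.00 with no call. The change of KRT7 did not differ detectably between TE6 and KYSE180, by 0.34 ± 0.251 (adjusted p = 0.304) for siBRDT and 0.46 ± 0.280 (adjusted p = 0.183) for siTP63. In TE6 the siTP63 and siBRDT groups differed in KRT7 by 0.37 ± 0.176 (adjusted p = 0.115).

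KRT80, the type II keratin with the largest response among the members, separated the knockdowns. In KYSE180 its normalised values were 140 and 97.5 in siCont and 1209 and 1231 in siTP63 libraries, a ratio of means of 10.3. In TE6 they were 228 and 242 in siCont, 189 and 225 in siBRDT, and 1309 and 1398 in siTP63 libraries, the last 5.76 times the control mean. In the BRDT experiment of KYSE180 they were 84.5, 113 and 118 in siCont and 141, 122 and 117 in siBRDT. The siTP63 libraries of both lines thus stood far above their controls, while siBRDT libraries overlapped them in KYSE180 and lay just below them in TE6. The log2 fold change under siTP63 was 3.37 ± 0.168 (adjusted p = 3.48e-14, limma) in KYSE180 and 2.52 ± 0.131 (adjusted p = 4.93e-08) in TE6. Both were called under every alternative, at 3.11 to 3.89 and 2.47 to 2.604. Under siBRDT it was 0.27 (adjusted p = 0.113) in KYSE180 and -0.19 (adjusted p = 0.260) in TE6.

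The direct contrast of siTP63 with siBRDT in TE6, in which the shared controls cancel, put KRT80 2.71 ± 0.131 higher on the log2 scale under siTP63 (adjusted p = 4.42e-08, limma). The siTP63 change in KRT80 was 0.85 ± 0.227 smaller in TE6 than in KYSE180 (TE6 minus KYSE180 -0.85, adjusted p = 0.00518). Line, experiment and depth of knockdown cannot be told apart in any contrast between lines. KYSE150, with the highest control level of KRT80, had values of 1948 and 2061 in siCont and 3707 and 3133 in siTP63 libraries. The groups did not overlap, yet the log2 difference of 0.77 ± 0.204 missed the threshold (adjusted p = 0.158). Its change under siTP63 was smaller than that of KYSE180 (difference -2.61 ± 0.267, adjusted p = 0.0215) and of TE6 (difference -1.76 ± 0.206, adjusted p = 0.00395), and KRT80 was the 1 member of 6 tested that differed in each of these contrasts. Beside these 1 lower and 0 higher members, 1.1% of all genes were lower and 0.95% higher in the contrast with KYSE180, and 1.47% and 1.96% in that with TE6. The contrast with KYSE180 was lost when any single KYSE180 library was left out (adjusted p up to 0.186). BRDT-OE libraries had KRT80 values of 2706, 2430 and 2672 against 2426, 2369 and 2235, a log2 difference of 0.15 (adjusted p = 0.102).

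KRT8 and KRT18, the partners of the simple epithelial filament, had differences of the same sign in 5 of 6 comparisons, and their calls depended on the line and on the processing. In TE6, KRT8 values were 13015 and 11391 in siCont, 19231 and 18797 in siBRDT, and 12658 and 12761 in siTP63 libraries. KRT18 values were 5495 and 5011 in siCont, 8429 and 9005 in siBRDT, and 6113 and 6389 in siTP63. Both rose under siBRDT in TE6, KRT8 by 0.64 ± 0.0920 (adjusted p = 1.48e-04, limma) and KRT18 by 0.73 ± 0.0917 (adjusted p = 6.07e-05) on the log2 scale. Under siTP63 in TE6, KRT8 differed by 0.06 (adjusted p = 0.601) and KRT18 by 0.25 (adjusted p = 0.0357, under the fold limit). The siTP63 group was lower than the siBRDT group by 0.58 for KRT8 (adjusted p = 3.70e-04) and by 0.48 for KRT18 (adjusted p = 0.00137).

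In KYSE180 the pair did not pass the thresholds under siBRDT. KRT8 values were 7725, 7169 and 6906 in siCont and 8197, 7956 and 6922 in siBRDT libraries, and KRT18 values 4416, 3953 and 3671 against 4685, 4459 and 4225. The groups overlapped for both genes, with log2 differences of 0.08 (adjusted p = 0.360, limma) and 0.15 (adjusted p = 0.0793). The change under siBRDT was larger in TE6 than in KYSE180 by 0.56 ± 0.128 for KRT8 (adjusted p = 0.00254) and 0.58 ± 0.123 for KRT18 (adjusted p = 0.00163). In this contrast of TE6 minus KYSE180, 3 of 5 tested members, KRT19 among them, had a positive difference and 0 a negative one, beside 18% and 20.3% of all genes.

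The size of these changes moved with transcript length and GC content. Canonical transcripts of KRT8 and KRT18 hold 1784 and 1413 bases with 59.3% and 58.2% G and C, against medians of 2409 bases and 48.65% over all symbols. With the trend of each library on length and GC content removed, the siBRDT change in TE6 was 0.24 for KRT8 (adjusted p = 0.0185, limma) and 0.25 for KRT18 (adjusted p = 0.0128), both under the fold limit, and 1 member, KRT7 at 0.85 (adjusted p = 0.00172), was still called. The contrast between lines was then 0.27 for KRT8 (adjusted p = 0.0188) and 0.21 for KRT18 (adjusted p = 0.0625).

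Under siTP63 in KYSE180 the pair was lower. KRT8 values were 32319 and 23882 in siCont and 16628 and 12720 in siTP63 libraries, and KRT18 values 13143 and 10336 against 6947 and 5849. No treated library reached a control, and the log2 fold changes were -0.93 ± 0.193 for KRT8 (adjusted p = 2.00e-04, limma) and -0.87 ± 0.165 for KRT18 (adjusted p = 7.66e-05). In this experiment the normalised values of the siCont libraries summed to 16565108 and 17307938 and those of the siTP63 libraries to 11475859 and 12077466. With libraries scaled to equal total reads, which shifted the median of all genes to 0.53, the changes were -0.41 for KRT8 and -0.35 for KRT18, KRT19 was at -0.06, and the members called became 3 up and 0 down, beside 6781 genes up and 1451 down in place of 3292 and 3577. With the length and GC trend removed, KRT8 was at -0.64 (adjusted p = 0.00353) and remained called and KRT18 at -0.47 was not. The signed siTP63 change in TE6 minus that in KYSE180 was 1.00 ± 0.215 for KRT8 (adjusted p = 0.00112) and 1.12 ± 0.183 for KRT18 (adjusted p = 1.04e-04), with the larger change in KYSE180, where both fell. In this contrast 2 of 6 tested members had a positive and 1 a negative difference, beside 26.6% and 24.4% of all genes. Trend removal brought the KRT8 and KRT18 differences to 0.36 and 0.35 with adjusted p = 0.0906 and 0.0551.

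In KYSE150 the KRT8 values were 79653 and 50898 in siCont and 23883 and 41026 in siTP63 libraries, and the KRT18 values 55569 and 30941 against 20117 and 35505. KRT8 groups did not overlap and KRT18 groups did. The log2 differences of -1.02 ± 0.463 (adjusted p = 0.319, limma) and -0.63 ± 0.475 (adjusted p = 0.533) were not called. Without single libraries they ranged from -1.41 to -0.63 for KRT8 and from -1.06 to -0.21 for KRT18, also with no call, and KRT8 was called with the length and GC trend removed (-1.03, adjusted p = 0.0411). BRDT-OE libraries had KRT8 values of 39928, 37586 and 40707 against 34108, 32935 and 38214, and KRT18 values of 27541, 26836 and 28082 against 28025, 24034 and 32525. Both overlapped their controls, with log2 differences of 0.17 (adjusted p = 0.124) and -0.03 (adjusted p = 0.852).

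KRT19, a short type I keratin that lacks most of the tail domain, was the most abundant member in KYSE180 and TE6 controls and had lower values under siTP63 in both lines. In the siTP63 experiment of KYSE180 its values were 58959 and 45703 in siCont and 39419 and 30452 in siTP63 libraries. KRT19 fell by 0.58 on the log2 scale there (SE 0.213, adjusted p = 0.0212, limma), and this call was lost without the first siCont or the second siTP63 library (each -0.40), with upper-quartile rescaling (-0.37), without the filter on low values, and with scaling to total reads or removal of the length and GC trend (-0.06 and -0.13). In TE6 its values were 13386 and 11447 in siCont, 13501 and 13260 in siBRDT, and 10056 and 10121 in siTP63 libraries. The siTP63 difference of -0.30 (adjusted p = 0.0203) and the siBRDT difference of 0.11 (adjusted p = 0.355) lay under the fold limit. With the trend removed the former was -0.73 (adjusted p = 6.11e-06) and was called, and the latter was -0.46.

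Under siBRDT in KYSE180 the KRT19 values were 14612, 13876 and 13064 in siCont and 11840, 11055 and 9194 in siBRDT libraries. The groups did not overlap and the log2 difference was -0.38 ± 0.0838 (adjusted p = 0.00125, limma), under the fold limit. It was -0.51 with the trend removed and was then called. The siBRDT change of KRT19 was 0.49 ± 0.145 higher in TE6 than in KYSE180 (adjusted p = 0.0130), a signed difference in which the larger change was that of KYSE180. This call was lost with the trend removed (0.082, adjusted p = 0.480), with scaling to total reads (0.30, adjusted p = 0.0797) and without the second TE6 siCont library (0.38). In TE6 the siTP63 group lay below the siBRDT group by 0.41 (adjusted p = 0.00480). In this contrast of siTP63 with siBRDT, 1 of 5 tested members was higher and 3 were lower, beside 19.3% and 19.9% of all genes. In KYSE150 the KRT19 values were 2.97 and 2.36 in siCont and 5.82 and 13.3 in siTP63 libraries (2 to 10 reads), and 43.4, 18.9 and 35.1 in empty-vector against 26.7, 33.0 and 22.5 in BRDT-OE libraries. Neither was called, the former because it stayed under the filter.

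KRT81, the hair keratin, was read in single to low double digits in KYSE180 and TE6. In the siTP63 experiment of KYSE180 it had 5 and 6 reads in siCont and 45 and 29 reads in siTP63 libraries, normalised values of 7.86 and 6.16 against 34.5 and 23.0. The log2 difference was 1.87 ± 0.434 (adjusted p = 6.61e-04, limma), and its call was lost without the first siTP63 library (1.59, adjusted p = 0.0729). Both control values lay under the filter of 10, so KRT81 was tested only because the siTP63 libraries were high, and the call carries no weight beyond the values. In TE6 its values were 10.5 and 6.89 in siCont, 5.39 and 9.56 in siBRDT, and 17.3 and 5.92 in siTP63 libraries, which overlap and stayed under the filter. In the BRDT experiment of KYSE180 it had 0 to 4 reads per library. KYSE150 gave the only values over 100, with 156 and 76.6 in siCont against 187 and 381 in siTP63 (log2 difference 1.28 ± 0.477, adjusted p = 0.251). Without the first siCont or the first siTP63 library this difference was 1.79 each time and was called (adjusted p = 0.0111 and 0.0290), and without either of the others it was 0.77 with no call. In the BRDT-OE experiment KRT81 had 131, 110 and 173 in empty-vector against 117, 95.6 and 112 in BRDT-OE libraries (-0.33, adjusted p = 0.133).

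Its near-identical neighbour KRT86 had values of 7.86 to 9.24 in siCont and 48.5 to 63.7 in siTP63 libraries of KYSE180, a log2 difference of 2.57 (adjusted p = 1.23e-06, limma). In TE6 the KRT86 values were 6.03 to 12.3 and 20.7 to 23.2, a difference of 1.25 under siTP63 (adjusted p = 0.0340), and in KYSE150 they were 14.1 to 17.8 against 54.8 to 99.8 (2.15, adjusted p = 0.115). KRT86 fell by 0.71 under BRDT-OE (adjusted p = 0.0488). With the length and GC trend removed, its TE6 and BRDT-OE calls were lost (adjusted p = 0.0958 and 0.0851). Of 14 other hair keratins only KRT83, KRT86 and KRT34 passed the filter in any comparison, and KRT83 had values of 4.72 to 6.16 in siCont and 33.7 to 38.1 in siTP63 libraries of KYSE180 and of 3.45 to 5.27 in siCont, 14.3 to 22.7 in siBRDT and 28.1 to 29.9 in siTP63 libraries of TE6. The control means of KRT83 and KRT86 in KYSE180 and TE6 lay under the filter of 10, so both genes were tested there only through the treated libraries. Reads of KRT81, KRT83 and KRT86 may be shared, and their part in each other's values was not tested.

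KRT20, the intestinal and urothelial keratin, had 0 to 8 reads in every library. It had 0 reads in all 4 KYSE150 libraries of the siTP63 experiment, which allows up to 3 reads per library, and its groups overlapped in all 6 comparisons. No change of KRT20 was detectable at this depth.

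**Figure D3:**
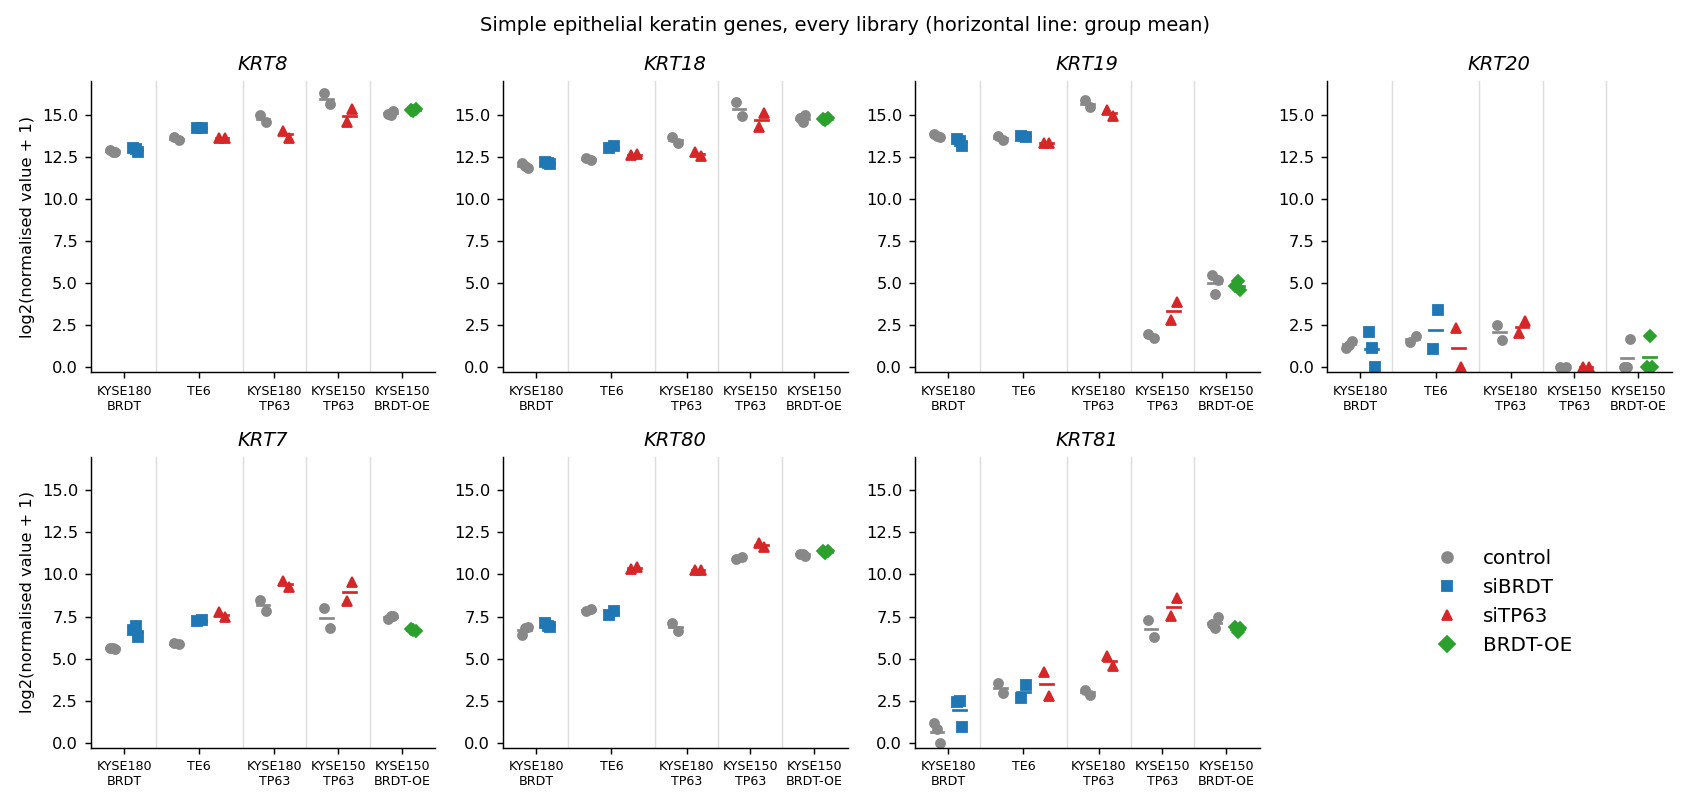
Every library of the 5 experiments for each of the 7 keratins, as log2(normalised value + 1), with controls as grey circles, siBRDT as blue squares, siTP63 as red triangles, BRDT-OE as green diamonds and a line at each group mean. KRT80 separates siTP63 from all other groups in KYSE180 and TE6, KRT7 separates both knockdowns from controls, and KRT20 stays near the bottom throughout.

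The ratio of KRT8 to KRT18 was computed within each library, where its scale cancels. As log2 values, controls stood at 0.86 ± 0.0525 (SD, n = 3) in the BRDT and 1.25 ± 0.0635 (n = 2) in the TP63 experiment of KYSE180, 1.21 ± 0.0418 (n = 2) in TE6, and 0.62 ± 0.140 (n = 2) and 0.32 ± 0.116 (n = 3) in the siTP63 and BRDT-OE experiments of KYSE150. The ratio was 1.02 ± 0.0369 under siTP63 in TE6, 0.23 ± 0.0276 under siTP63 in KYSE150 and 0.52 ± 0.0287 under BRDT-OE, each without overlap with its controls. The differences were -0.19, -0.39 and 0.20. The exact two-sided permutation p was 0.333 for the siTP63 comparisons and 0.1 for BRDT-OE, the smallest that groups of 2 and of 3 allow, so none can pass 0.05. In the other 3 comparisons the groups overlapped and the differences were -0.06 to -0.09.

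The share of the 7 members in all keratin mRNA was measured as the sum of their length-scaled values over that of all listed keratin genes in the same library. It was 26.2%, 25.5% and 26.5% in siCont and 35.6%, 35.3% and 33.7% in siBRDT libraries of KYSE180. In TE6 it was 26.8% and 25.5% in siCont, 40.6% and 38.6% in siBRDT, and 51.9% in both siTP63 libraries. In the TP63 experiment of KYSE180 it was 32.1% and 29.8% against 42.6% and 39.6%. All 4 of these comparisons had no overlap, with differences of 8.77 ± 0.657 percentage points (SE, n = 3 and 3), 13.5 ± 1.21, 25.8 ± 0.686 and 10.2 ± 1.89 (n = 2 and 2 each). The exact two-sided permutation p was 0.1 for siBRDT in KYSE180 and 0.333 for the others, again the smallest possible. This share also rises when other keratins fall. In TE6 the mean RPKM of KRT19, KRT8 and KRT18 was 792, 606 and 330 in siCont. It was 795, 881 and 509 in siBRDT and 639, 627 and 390 in siTP63. In KYSE180 the means were 897, 367 and 256 in siCont and 736, 412 and 302 in siBRDT libraries. They were 2218, 927 and 489 against 2129, 697 and 384 in its siTP63 experiment. In KYSE150 the members made up 84.2% to 90.2% of keratin mRNA in all libraries of the siTP63 experiment and 84.4% to 87.0% in those of the BRDT-OE experiment, and the groups overlapped in both (exact p = 0.667 and 0.4).

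**Figure D4:**
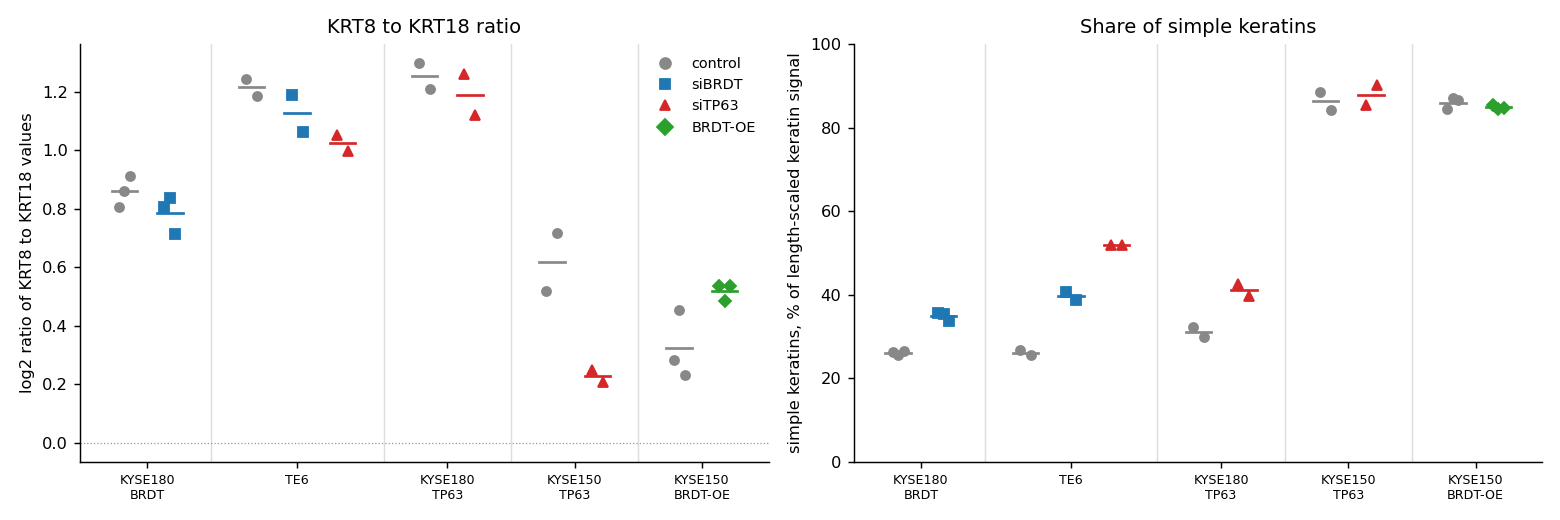
Left, log2 ratio of KRT8 to KRT18 values in each library; right, percent of the length-scaled keratin signal that belongs to the 7 simple epithelial keratins, with lines at group means. The share lies between 25.5% and 32.1% in KYSE180 and TE6 controls, reaches 51.9% under siTP63 in TE6 and is at least 84.2% in every KYSE150 library.

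Most of the called stratified keratins fell in the KYSE180 and TE6 knockdowns. Of 23 listed, 11 were tested under siBRDT in KYSE180, and 0 rose and 6 fell (median log2 change -0.56). In TE6, siBRDT gave 1 rise and 5 falls among 13 tested (median -0.20). Under siTP63 there were 2 rises and 10 falls among 13 in KYSE180 (median -0.98) and 1 rise and 9 falls among 13 in TE6 (median -1.63). With scaling to total reads the KYSE180 siTP63 count was 2 rises and 5 falls. KRT14, the basal type I keratin, fell by 1.14 and 1.47 under siBRDT in KYSE180 and TE6 and fell by 2.76 and fell by 5.26 under siTP63 (adjusted p at most 2.85e-06, limma). KRT5, its partner, fell by 1.02 and 1.49 under siBRDT in KYSE180 and TE6. KRT4, a keratin of the layers above the basal one, instead rose by 2.0004 under siTP63 in KYSE180, by 2.895 in TE6 and by 1.495 under siBRDT in TE6. In KYSE150, siTP63 gave 0 calls among 8 tested (median -1.13), and BRDT-OE gave 2 rises (KRT14 and KRT6A) and 1 fall (KRT15), with 0 rises once libraries were scaled to total reads. Of all genes, 14.5% rose and 15.8% fell under siBRDT in KYSE180, and 15.6% and 18.1% did in TE6. Under siTP63 these shares were 23.6% and 25.7% in KYSE180 and 18.3% and 20.6% in TE6, and under BRDT-OE 10.5% and 16%.

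Summed squamous markers, a list that holds TP63, KRT5 and KRT14 themselves, changed alongside. They amounted to 9570 to 10154 RPM in siCont and 5979 to 6159 RPM in siBRDT libraries of KYSE180, 8701 to 8911 against 6056 to 6109 RPM in its siTP63 experiment, and 8121 to 8339 RPM in siCont, 4792 to 5124 in siBRDT and 2025 to 2190 in siTP63 libraries of TE6. All 10 markers were still read above 1 RPM there. Columnar or intestinal markers summed to 19.8 to 23.3 RPM in siCont and 28.3 to 33.1 RPM in siBRDT libraries of KYSE180 and to 6.43 to 8.62 against 9.61 to 11.9 RPM in TE6, with 1 or 2 of 7 markers above 1 RPM. In siTP63 libraries the columnar sums were 23.4 to 24.0 RPM in KYSE180, against 20.6 to 22.0 in its controls, and 9.58 to 10.0 RPM in TE6. Fibroblast markers summed to 36.4 to 39.8 RPM in siCont and 68.9 to 80.3 RPM in siTP63 libraries of KYSE180, and to 9.38 to 10.4 RPM in empty-vector and 4.51 to 5.90 RPM in BRDT-OE libraries of KYSE150, in both without overlap, and DCN was at 0 in the siTP63 libraries of KYSE180 and in both of these KYSE150 groups. In the siTP63 experiment of KYSE150 the fibroblast sums were 3.89 to 5.09 RPM in siCont and 5.76 to 8.61 RPM in siTP63 libraries. For siBRDT in KYSE180 and both knockdowns in TE6 these sums overlapped their controls. The part of all these markers in the keratin changes was not tested.

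Genes of simple epithelial surfaces and junctions, a list with MUC1, TJP3 and claudins, showed 4 rises and 0 falls among 11 tested under siBRDT in KYSE180 and 5 rises and 1 fall among 13 in TE6. The TE6 count was 2 rises and 1 fall with the length and GC trend removed and 3 and 1 with scaling to total reads. Under siTP63 the counts were 9 and 2 of 12 in KYSE180 and 7 and 1 of 13 in TE6. TJP3, a tight junction scaffold, rose by 2.56 ± 0.152 in KYSE180 and 1.52 ± 0.166 in TE6 under siTP63 (adjusted p = 1.07e-12 and 1.26e-05, limma), and MUC1, an apical mucin, by 2.34 and 1.90. CLDN7 fell by 0.60 under siTP63 in KYSE180, a call lost with scaling to total reads (-0.08) or the trend removed (-0.27). CLDN1 fell by 0.87 under siTP63 in TE6 and rose by 0.76 and 0.66 under siBRDT in KYSE180 and TE6. OCLN fell by 1.47 under siBRDT in TE6. BRDT-OE gave 0 rises and 7 falls among 10 tested (median -1.04), including TJP3 (-2.54 ± 0.174, adjusted p = 4.62e-06). In KYSE150 siTP63 gave 0 calls among 10 (median 0.49). Of all genes, 14.5% rose and 15.8% fell under siBRDT in KYSE180, and 15.6% and 18.1% did in TE6. Under siTP63 these shares were 23.6% and 25.7% in KYSE180 and 18.3% and 20.6% in TE6, and under BRDT-OE 10.5% and 16%.

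Transcription factors and other regulators linked to simple epithelial genes showed 13 rises and 0 falls among 19 tested under siTP63 in KYSE180, 7 and 3 among 18 in TE6, and 0 among 14 in KYSE150. Under siBRDT the counts were 4 and 0 among 17 in KYSE180 and 3 and 7 among 18 in TE6, the latter 2 and 3 with the length and GC trend removed, and under BRDT-OE 1 and 4 among 16. Over all genes, 23.6% rose and 25.7% fell under siTP63 in KYSE180, and 18.3% and 20.6% did in TE6. Under siBRDT these shares were 14.5% and 15.8% in KYSE180 and 15.6% and 18.1% in TE6, and under BRDT-OE 10.5% and 16%. EHF, an epithelial ETS factor, rose by 2.50 ± 0.153 under siTP63 in KYSE180 (adjusted p = 1.76e-12, limma). ELF3, a related factor, rose by 0.64 under siBRDT in KYSE180 (adjusted p = 1.38e-05) and fell by 2.04 under BRDT-OE (adjusted p = 1.37e-05). FOXA1, a pioneer factor of endodermal epithelia, rose by 1.08 under siBRDT in KYSE180 (adjusted p = 2.15e-07). In TE6 under siBRDT, ESRP2 and GRHL3 fell by 0.75 and 0.74, while KLF4 and OVOL1 rose by 1.48 and 0.81. Under siTP63 in TE6, KLF5 and SP1 fell by 0.65 and 0.58, and GATA6 and OVOL2 rose by 1.03 and 1.21. The calls of KLF5 and SP1 were lost with the length and GC trend removed.

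Genes that bind or turn over keratin filaments split between directions, with 2 rises and 4 falls among 16 tested under siBRDT in both KYSE180 and TE6, 3 and 4 among 15 and 3 and 6 among 16 under siTP63 in KYSE180 and TE6, and 1 and 2 among 16 under BRDT-OE. Over all genes, 14.5% rose and 15.8% fell under siBRDT in KYSE180, and 15.6% and 18.1% did in TE6. Under siTP63 these shares were 23.6% and 25.7% in KYSE180 and 18.3% and 20.6% in TE6, and under BRDT-OE 10.5% and 16%. With scaling to total reads the KYSE180 siTP63 count was 10 rises and 1 fall, beside 6781 rises and 1451 falls among all 13969 genes tested. PPL, the plakin periplakin, rose by 1.48 and 0.92 under siTP63 in KYSE180 and TE6 and fell by 0.69 under BRDT-OE. Plakins did not move as 1 group, as under siTP63 in TE6 DSP fell by 1.16 and EVPL rose by 1.01. KLHL24, an adaptor that targets keratins for degradation, fell under siBRDT by 0.60 in KYSE180, a call lost with the trend removed (-0.47), and fell by 1.21 in TE6, rose by 1.34 under siTP63 in KYSE180 and fell by 1.72 under BRDT-OE. PLEC, the cytolinker plectin, rose by 1.39 under BRDT-OE (adjusted p = 3.79e-05, limma).

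Finally, the genes with the most similar pattern were sought for the 3 members with a mean value of at least 100 in all 5 tables, over 26 libraries and 11325 genes, with each library expressed relative to the control mean of its table. The libraries of a table share their controls and scaling, so these correlations are descriptive. The genes named below were picked for likeness in these same libraries, so their matching changes largely follow from that choice. For KRT80 they were PCDH1 (r = 0.960), ELFN2 (0.953) and IGFBP3 (0.946), whose log2 changes under siTP63 were 2.86, 2.69 and 2.73 in KYSE180 and 1.98, 2.22 and 2.55 in TE6. For KRT8 they were DUS1L (0.979), CLIC1 (0.965) and NMRAL1 (0.962), and for KRT18 NMRAL1 (0.971), PCYT2 (0.968) and HDGFRP2 (0.964). KRT8 correlated with KRT18 at r = 0.947, below DUS1L, CLIC1 and NMRAL1, which were picked as the highest of 11325 genes. Among the members, KRT7 correlated with KRT80 at 0.541 and with KRT8 at -0.18, and KRT8 with KRT80 at -0.53.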

How the data were processed

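The authors mapped mRNA-seq reads to hg38 with STAR 2.6.0, counted them per gene with HTSeq 0.11.2 and normalised them with DESeq2 1.24.0 (versions per the submitters' processing notes). The deposited values are a normalised signal, gene counts that each library's size factor has divided, with factors estimated within each of 5 tables. All columns were mapped to samples by line, condition and replicate number. Whole reads were recovered from the value of 1 read per library, and 100% of values came out whole within 0.001 reads.

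limma 3.58.1 (R 4.3.3, lmFit and eBayes with trend) was fitted on log2(value + 1) over all genes with a mean of at least 10, with Benjamini-Hochberg adjustment over all genes tested. TE6 groups shared 1 fit. Calls needed an adjusted p under 0.05 and 0.5 in log2, the study's thresholds, and contrasts of 2 fold changes an adjusted p under 0.05. Ratios and shares were tested by exact permutation. The fits were tested on simulated data. Coordinates, lengths and sequences came from GENCODE release 44 on hg38, and length and GC content were found for 87.4% of symbols.

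All 7 members were named in every comparison. From each other list at most 2 called genes per direction qualified, those with the largest changes among genes with a mean of at least 100, and some of these are given (1 such gene is not reported here); KRT86, KRT83 and KRT34 were named after their values were seen. Members and lists were chosen with earlier results of these data known. Alternatives were a pseudocount of 0.1, no filter, upper-quartile rescaling, no fold limit, a block for the replicate number, recovered reads tested by edgeR 4.0.16 or DESeq2 1.42.0, and the omission of each library. Scaling to total reads, removal of each library's length and GC trend (4-degree splines) and a crossed block were added after seeing the data. The depth of 7582089 to 19372441 reads covers counting error only.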

Additional observations from a re-analysis of the deposited data

Results flagged for a closer look

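Differences between cell lines under siRNA against the same gene passed the limma contrast for 8 results. Each line came from its own experiment, and the depth of the knockdown differed. The log2 difference of TP63 under siTP63 was -1.70 in KYSE180, -4.45 in TE6 and -2.34 in KYSE150. That of BRDT under siBRDT was -2.75 in KYSE180 and -2.23 in TE6. Line, experiment and knockdown depth therefore cannot be told apart in these contrasts. As signed log2 changes, TE6 minus KYSE180 under siBRDT was 0.56 for KRT8 and 0.58 for KRT18, with the larger change in TE6, and 0.49 for KRT19, with the larger change in KYSE180. Under siTP63 it was 1.00 for KRT8 and 1.12 for KRT18, which fell in KYSE180, and -0.85 for KRT80, which rose less in TE6. The siTP63 change of KRT80 in KYSE150 lay below that in KYSE180 (-2.61) and below that in TE6 (-1.76). With the length and GC trend removed, KRT8 under siBRDT (0.27) and all 3 KRT80 contrasts (-0.78, -2.51 and -1.73) were still past the threshold, and the other 4 were not.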

How the results depend on the processing

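Single genes kept their direction and their side of the threshold in 629 of 695 alternative fits counted, while 24 calls were lost, 26 gained and 16 signs turned. Members other than KRT80 were not counted in the siTP63 contrasts of KYSE150 with KYSE180 and TE6. The number of members called moved to 2 without the fold limit and to 2 with the length and GC trend removed for siBRDT in KYSE180, to 3 with scaling to total reads for siTP63 in KYSE180, to 1 with trend removal for siBRDT in TE6, and to 4 without the fold limit for siTP63 in TE6. For siTP63 in KYSE150 it moved from 0 to 3 with trend removal, 1 with DESeq2 and 0 to 2 without single libraries, as all genes called went from 0 to 443 up and 627 down with trend removal and 201 up and 261 down with DESeq2. In the contrasts it moved to 1 with trend removal for siBRDT between TE6 and KYSE180. For siTP63 it moved to 2 with trend removal and 0 to 2 without single libraries between KYSE150 and KYSE180, and to 2 with trend removal, 2 with scaling to total reads and 1 to 4 without single libraries between KYSE150 and TE6. Without single libraries the KRT8 to KRT18 difference under siTP63 in KYSE180 ranged from -0.13 to 0.0060, and the share difference under siTP63 in KYSE150 from -0.95 to 3.80 percentage points.

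Signs that turned among the counted fits were all of values not called in the comparison or contrast as reported. With trend removal these were KRT8 under siBRDT in KYSE180 (-0.017), KRT19 under siBRDT in TE6 (-0.46), KRT8 and KRT18 under siTP63 in TE6 (-0.28 and -0.13), KRT18 and KRT19 under BRDT-OE (0.14 and 0.059), the siBRDT contrast of KRT7 (-0.025), and the siTP63 contrasts of KRT19 and KRT7 between TE6 and KYSE180 (-0.60, with adjusted p = 0.00331 by limma, and -0.33). With scaling to total reads the last were -0.25 and -0.071, and with upper-quartile rescaling KRT80 under siBRDT in TE6 was 0.089. Without single libraries, KRT19 under siBRDT in TE6 ranged from -0.00068 to 0.23, KRT8 under siTP63 in TE6 from -0.034 to 0.16, and KRT18 and KRT19 under BRDT-OE from -0.14 to 0.083 and from -0.51 to 0.068. The cause was not tested beyond what each alternative changes.

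Same-numbered libraries did not deviate together in every pair (correlations of 0.00468 to 0.178 for siBRDT in KYSE180, 0.0147 to 0.0979 for BRDT-OE and -0.0836 to 0.0466 in the other groups of 2 outside KYSE150), so the replicate numbers were not taken as pairs. With the replicate block 1 member, KRT7, was called for siTP63 in KYSE150, 0 members differed between KYSE150 and KYSE180 under siTP63, and the counts of members in the other comparisons and contrasts stayed within 1.5 times. In KYSE150 siTP63 the correlation was -0.70, and with the numbers crossed 5 members and 1626 genes up and 1774 down were called. The crossed block was added after seeing these data and absorbs the same deviations, so its calls carry no weight as support.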
